A study of Mus musculus with 4 samples.

Results

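The genes described here were 31 genes of the tricarboxylic acid (TCA) cycle and of pyruvate entry into mitochondria, taken by gene symbol from a list. The rule used no measured value, although earlier results of these data were known when the list was drawn up. All 31 were among the 24421 genes in the data, and all 31 passed the filter on low values (0.5 CPM, reads scaled to library size, or more in 2 or more libraries) that left 14106 genes to test. The RNA came from epididymal adipose tissue, the visceral fat pad beside the testis, of wild-type (WT) male C57BL/6J mice. Both groups were made obese with a high-fat diet (HFD) and were 24 weeks old at the end. In the control group (Ctrl), HFD began at 10 weeks of age and continued without a break for 14 weeks. In the weight-cycling group (WC1), HFD began at 8 weeks of age and lasted 8 weeks, standard diet (SD) was given for 2 weeks to make the mice lose weight, and HFD was then resumed for 6 weeks, so that both groups had 14 weeks of HFD in all. No genetic change or drug was used in either group, and the age at the first HFD differed along with the SD interval. Each group had 2 libraries. The comparison asked how this gene set differed at the end of the experiment between fat that had gone through a transient weight loss and fat that had not.

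Pyruvate made by glycolysis enters the mitochondrion through the mitochondrial pyruvate carrier. Inside, the pyruvate dehydrogenase complex turns it into acetyl-CoA, which citrate synthase joins to oxaloacetate, or pyruvate carboxylase turns it into oxaloacetate directly, and the cycle then oxidises the acetyl group back to oxaloacetate while feeding electrons to the respiratory chain. In white adipocytes a large part of the citrate leaves the mitochondrion as the source of cytosolic acetyl-CoA for fatty acid synthesis, and oxaloacetate made by pyruvate carboxylase refills the cycle and can also feed glyceroneogenesis.

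In WC1, 9 of the 31 genes rose and none fell. Pcx, which encodes pyruvate carboxylase, changed most, to 1.94-fold on the log2(CPM + 1) scale, followed by Idh3a, the catalytic subunit of NAD-dependent isocitrate dehydrogenase, at 1.53-fold. The other 7 that rose were Cs, Dld, Suclg2, Sucla2, Dlat, Pdp2 and Mpc2, and each changed by less than 1.5-fold. No gene of the set reached a 2-fold difference on this scale, while on the TPM matrix the difference of Pcx was 1.09 on the log2 scale.

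The 9 genes amounted to 29.0% of the set, against 10.2% of all tested genes that rose by the same rule (limma adjusted p under 0.05). No member fell, against 7.71% of all tested genes, and no member was lower at an unadjusted p under 0.05 or by edgeR or DESeq2. Both WC1 libraries lay above both Ctrl libraries for 24 members, or 77.4% of them, against 32.7% of all tested genes. Both lay below for 3 members, or 9.68%, against 36.6% of all tested genes, and the groups overlapped for the other 4. The median difference of the members was 0.28 on the log2(CPM + 1) scale, beside -0.019 over all tested genes, and single members ranged from -0.30 to 0.96. Of the 22 members that did not pass, 15 had both WC1 libraries above both Ctrl libraries, and 10 members had an adjusted p from 0.05 to under 0.1 (limma). At an unadjusted p under 0.05 there were 20 members, all higher in WC1.

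The count of 9 rested on both Ctrl libraries. Without Ctrl 1 no member passed (9 at an unadjusted p under 0.05, limma), and without Ctrl 2 none passed (7 at an unadjusted p under 0.05), while only 6 and 12 genes in all still passed. Without WC1 1 the count was 19 members, with 2424 of the 14106 genes higher, and without WC1 2 it was 9. DESeq2 gave 17 members, and with it 15.1% of all tested genes were higher.

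**Figure D1:**
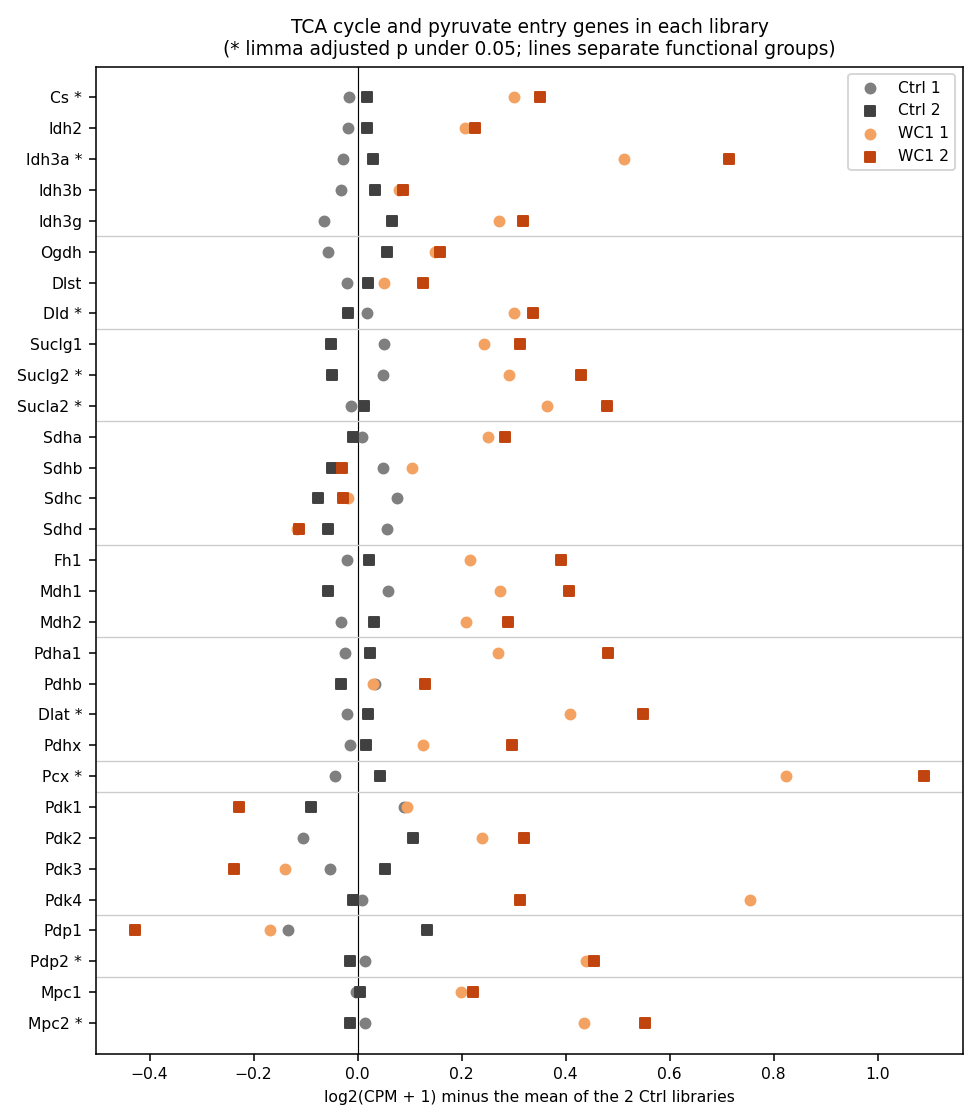
Each row is 1 gene of the set and each point 1 library, plotted as log2(CPM + 1) minus the mean of the 2 Ctrl libraries; asterisks mark a limma adjusted p under 0.05. The WC1 points of Pcx lie farthest to the right, followed by WC1 1 of Pdk4 and WC1 2 of Idh3a, those of Sdhd, Pdk3 and Pdp1 lie left of both Ctrl points, and WC1 2 lies right of WC1 1 for 25 of the 31 genes.

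The libraries held between 61465029 and 90965297 reads. Adipocyte markers were abundant in every library and moved with the groups: all 12 listed markers were higher in both WC1 libraries and 9 of 12 rose, with a summed level of 11903 to 13468 CPM in Ctrl and 21592 to 27412 CPM in WC1. Macrophage markers went the other way: 11 of 12 were lower in both WC1 libraries and 5 of 12 fell. Their sums were 14576 to 15991 CPM in Ctrl against 6837 to 10082 CPM in WC1. Endothelial markers were higher (5 of 7, 394 to 446 CPM against 795 to 1037 CPM). Of the 8 fibroblast markers 3 fell and 5 did not pass. By library, 5 of the 8 were lower in both WC1 libraries and 3 overlapped between groups (sums of 9245 to 9538 CPM against 6485 to 8404 CPM). The remaining lists were small: B cell 2.59 to 4.31 CPM against 7.24 to 26.4 CPM (1 of 4 higher), T and NK cell 8.48 to 12.9 CPM against 7.31 to 11.4 CPM (0 of 7 called, 1 at an unadjusted limma p under 0.05), mesothelial 80.8 to 110.2 CPM against 56.5 to 149 CPM (0 of 5 called, 0 at an unadjusted limma p under 0.05). Skeletal muscle markers summed to 9.81 to 11.7 CPM against at most 21.1 CPM, of which Acta1 (the 1 marker called, of 5 tested) made up most, while Ckm was at most 0.205 CPM and Myh4 was at 0 in 3 libraries. Brown adipocyte markers summed to 14.7 to 15.1 CPM against 17.0 to 18.1 CPM, with Elovl3 higher and Dio2 lower, Ucp1 at no more than 0.263 CPM and Zic1 at 0 in every library. None of the 9 epididymis genes in the data was high enough to test, and their sum reached 3.24 CPM in WC1 1. The part of cell composition in the results below was not tested, and in bulk tissue fewer cells of a type and less RNA per cell cannot be told apart.

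Pcx opens the gene-by-gene account because it differed most. Its level was 386 CPM in Ctrl 1, 409 CPM in Ctrl 2, 704 CPM in WC1 1 and 846 CPM in WC1 2. The groups did not overlap, and the gap between them was wider than the gap within either. The difference was 0.96 ± 0.12 (SE, n = 2 per group, limma adjusted p = 0.0177). With length taken into account, Pcx ranked 8 among the 31 genes in Ctrl, at a mean of 185 TPM (reads per transcript length, scaled to a common sum), and 2 in WC1, at 398 TPM, just under Mdh1 at 405 TPM. No other member except Mpc2 moved up as many places. Without Ctrl 1 or Ctrl 2 its difference was still 0.91 or 1.0, with a limma adjusted p of 0.182 or 0.126.

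Pcx lies on mouse chromosome 19 (chr19:4510472-4621752, plus strand, GRCm38), and 2 promoter windows of 250 bases before a RefSeq start are listed for it. They are shown because Pcx was the gene that changed most and because the windows, which lie before different starts, share none of the 7 short motifs searched. The windows of Dlat and Cs, which put acetyl-CoA into the cycle and joined Pcx among the genes that rose, are shown beside them. Sequences are from RefSeq on GRCm38.p6 and run 5′ to 3′ on the strand of the gene, and capitals mark a match to a searched motif on either strand. The first Pcx window lies at chr19:4510222-4510471, the second at chr19:4594069-4594318, the Dlat window at chr9:50659781-50660030 (minus strand) and the Cs window at chr10:128337477-128337726 (plus strand).
Pcx, first window: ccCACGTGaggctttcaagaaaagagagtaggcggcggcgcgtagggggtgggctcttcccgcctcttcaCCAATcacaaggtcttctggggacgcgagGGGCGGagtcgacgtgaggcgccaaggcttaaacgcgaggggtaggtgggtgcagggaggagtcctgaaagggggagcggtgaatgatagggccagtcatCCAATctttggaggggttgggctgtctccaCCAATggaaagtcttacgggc
Pcx, second window: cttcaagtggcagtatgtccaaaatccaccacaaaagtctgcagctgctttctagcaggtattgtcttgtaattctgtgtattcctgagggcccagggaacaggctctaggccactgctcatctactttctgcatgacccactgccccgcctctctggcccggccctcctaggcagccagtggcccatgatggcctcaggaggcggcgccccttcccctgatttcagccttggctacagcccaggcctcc
Dlat: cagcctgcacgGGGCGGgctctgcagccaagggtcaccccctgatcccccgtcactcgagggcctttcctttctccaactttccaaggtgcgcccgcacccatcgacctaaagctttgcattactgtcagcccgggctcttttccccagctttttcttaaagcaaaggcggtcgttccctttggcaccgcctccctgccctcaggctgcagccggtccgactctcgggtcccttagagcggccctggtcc
Cs: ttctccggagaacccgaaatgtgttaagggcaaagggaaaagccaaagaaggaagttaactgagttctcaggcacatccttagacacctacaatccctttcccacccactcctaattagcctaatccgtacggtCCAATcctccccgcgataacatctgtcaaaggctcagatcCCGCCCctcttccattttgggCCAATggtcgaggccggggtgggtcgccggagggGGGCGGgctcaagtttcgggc
The capitals in the first Pcx window are an E-box starting 248 bases before the start, a GC box at 151 bases and CCAAT boxes at 180, 51 and 21 bases. The second window has no match. Dlat has a GC box at 239 bases, and Cs has CCAAT boxes at 116 and 55 bases and GC boxes at 76 and 21 bases.

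The motifs were chosen after the windows had been seen, and were searched on both strands in 32851 windows of 27025 genes. A window was listed for 28 of the 31 members and for 8 of the 9 that rose. No motif holds another within its letters, although matches may share bases. The CCAAT box (CCAAT) was present for 18 of the 28 members, or 64.3%, against 37.5% of all genes. The GC box (GGGCGG) was present for 19, or 67.9%, against 35.4%. The E-box (CACGTG) was found for Ogdh, Pcx, Pdk2 and Pdp2, or 14.3%, against 6.86%. The nuclear receptor half-site (AGGTCA) was found for 4 members, or 14.3%, against 15.8%, and the ETS core (CCGGAAG) for 3, or 10.7%, against 7.83%. The NRF1 motif was found for 3, or 10.7%, against 4.23%, and the TATA motif (TATAAA) for none of the 28, against 14.3%. These shares describe letters in the windows and were not tested.

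Pyruvate import depends on Mpc1 and Mpc2, which form the carrier as a pair. Mpc2 (chr1:165460637-165481214, plus strand, GRCm38) was at 70.6 and 69.1 CPM in Ctrl against 94.8 and 103 CPM in WC1, with no overlap, and rose by 0.49 ± 0.07 (SE, limma adjusted p = 0.0213). Mpc1 was at 89.4 and 89.8 CPM against 103 and 105 CPM, also without overlap, but its difference of 0.21 did not pass (limma adjusted p = 0.0765). In TPM, where the pair can be compared, Mpc1 made up 54.4% and 55.0% of their sum in Ctrl against 50.6% and 48.9% in WC1. The carrier genes were nearer to equal abundance in WC1.

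In the pyruvate dehydrogenase complex, Dlat (chr9:50634633-50659780, minus strand), the dihydrolipoamide acetyltransferase core, rose. It was at 92.8 and 95.6 CPM in Ctrl against 125 and 138 CPM in WC1, a difference of 0.48 ± 0.08 (SE, limma adjusted p = 0.0244). Pdha1, the alpha subunit of the first enzyme, was higher in both WC1 libraries (155 and 160.4 CPM against 190.2 and 220.4 CPM) with an adjusted p of 0.0547 (limma). Its partner subunit Pdhb overlapped between the groups, at 126 and 121 CPM against 126 and 135 CPM. Pdhx, which binds Dld to the core, was at 31.8 and 32.5 CPM against 35.2 and 39.7 CPM (limma adjusted p = 0.149). The members of the complex thus differed by unequal amounts. The ratio of Dlat to Pdhx in TPM was 1.83 and 1.84 in Ctrl against 2.23 and 2.18 in WC1, and the ratio of Pdha1 to Pdhb was 0.660 and 0.715 against 0.811 and 0.877.

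The complex is switched off by the pyruvate dehydrogenase kinases and switched on again by the phosphatases. None of the 4 kinase genes passed in the limma fit used throughout or in edgeR, Pdk2 and Pdk4 had an unadjusted limma p under 0.05, and Pdk4 passed in DESeq2 (adjusted p = 0.00372) and in limma on the TPM matrix (adjusted p = 0.0423). Pdk4, the isoform induced by fasting and by fatty acids, was at 73.5 and 72.6 CPM in Ctrl, 124 CPM in WC1 1 and 90.9 CPM in WC1 2. Both WC1 libraries were above Ctrl but lay far apart, and the difference of 0.53 ± 0.15 (SE) had an adjusted p of 0.0717 (limma). Leaving out WC1 2 put the difference at 0.75 (limma adjusted p = 0.00298), and leaving out WC1 1 put it at 0.31 (limma adjusted p = 0.0182). Pdk2 was at 41.2 and 47.9 CPM against 52.6 and 55.7 CPM (limma adjusted p = 0.105). Pdk3 lay slightly lower in WC1, at 12.5 and 13.5 CPM against 11.7 and 10.9 CPM (limma adjusted p = 0.229). Pdk1 overlapped, at 40.9 and 36.1 CPM against 41.1 and 32.6 CPM.

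In TPM, Pdk4 was the most abundant kinase gene in 3 of the 4 libraries, and in Ctrl 2 it was level with Pdk2 (40.6 and 40.8 TPM). Pdk4 took 39.7% and 37.6% of the summed kinase TPM in Ctrl against 49.2% and 42.0% in WC1, so the groups did not overlap. Pdk3 took 11.7% and 12.1% against 8.05% and 8.69%, and Pdk1 took 14.7% and 12.4% against 10.9% and 10.0%. The share of Pdk2 overlapped between the groups.

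Of the phosphatase genes, 1 passed. Pdp2 (chr8:104591451-104599026, plus strand) was the least abundant gene of the set, at 4.85 and 4.73 CPM in Ctrl against 6.85 and 6.94 CPM in WC1, and rose by 0.45 ± 0.10 (SE, limma adjusted p = 0.0445). Pdp1, the main phosphatase gene here, was at 23.2 and 28.2 CPM in Ctrl against 22.7 and 18.8 CPM in WC1, a difference of -0.30 ± 0.14 (SE) that did not pass (limma adjusted p = 0.187). Pdp1 made up 80.0% and 83.2% of the summed phosphatase TPM in Ctrl against 73.4% and 69.3% in WC1. The call for Pdp2 was among the least stable of the 9: it was lost in 6 of 14 alternative settings, as was that of Suclg2.

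**Figure D2:**
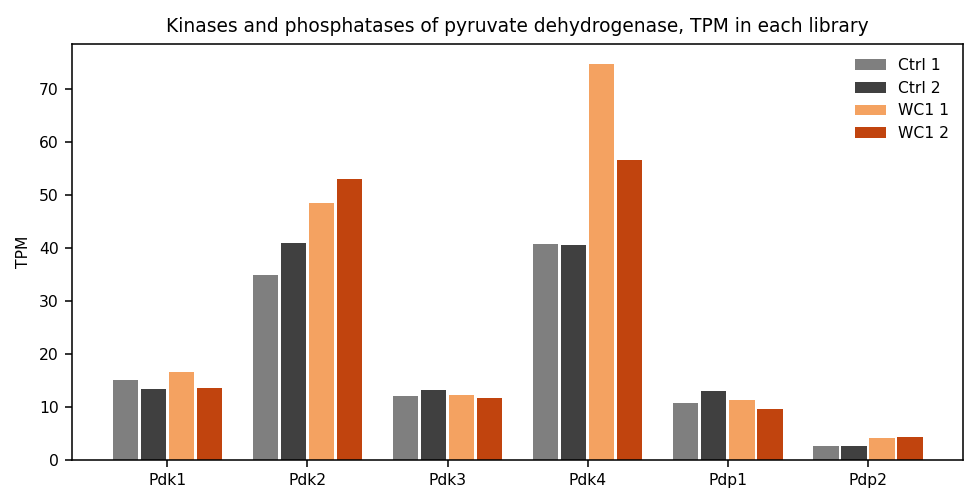
Bars give the TPM of each pyruvate dehydrogenase kinase gene (Pdk1 to Pdk4) and phosphatase gene (Pdp1, Pdp2) in each of the 4 libraries. Pdk4 stands at 40.7 and 40.6 TPM in Ctrl and at 74.8 and 56.6 TPM in WC1, the tallest kinase in every library but Ctrl 2, where Pdk2 is at 40.8 TPM, and Pdp2 is the lowest gene throughout.

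The cycle begins with citrate synthase, encoded by Cs (chr10:128337734-128362479, plus strand). Its level was 316 and 324 CPM in Ctrl against 394 and 408 CPM in WC1, a difference of 0.32 ± 0.08 (SE, limma adjusted p = 0.0487). The groups did not overlap.

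Among the isocitrate dehydrogenases, the 3 subunits of the NAD-dependent enzyme differed in how far they moved. Idh3a (chr9:54586334-54604661, plus strand) was at 149.6 and 156 CPM in Ctrl against 218 and 251 CPM in WC1, a difference of 0.61 ± 0.09 (SE, limma adjusted p = 0.0227). The regulatory subunits were closer to Ctrl. Idh3g was at 93.8 and 103 CPM against 119 and 123 CPM (limma adjusted p = 0.0576). Idh3b was at 127 and 133 CPM against 137 and 138 CPM (limma adjusted p = 0.408), and its exons overlap those of Nop56 on the other strand. In TPM, Idh3a was below Idh3b in Ctrl, at ratios of 0.747 and 0.742, and at or above it in WC1, at 1.01 and 1.15. The NADP-dependent mitochondrial enzyme, Idh2, was at 91.8 and 94.2 CPM against 107 and 109 CPM (limma adjusted p = 0.0746). Its share of the TPM of the 4 isocitrate dehydrogenase genes was 20.0% and 19.4% in Ctrl against 19.0% and 18.2% in WC1.

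The oxoglutarate dehydrogenase complex carried 1 gene that rose. Dld (chr12:31331277-31351453, minus strand), the dihydrolipoamide dehydrogenase that this complex shares with pyruvate dehydrogenase and the branched-chain keto acid complex, was at 149.8 and 146 CPM in Ctrl against 183 and 187 CPM in WC1, a difference of 0.32 ± 0.07 (SE, limma adjusted p = 0.0376). The other subunits were nearer to Ctrl in these libraries. Ogdh was at 317 and 343 CPM against 366 and 368 CPM, and Dlst was at 153 and 157 CPM against 161 and 169 CPM, with adjusted p values of 0.237 and 0.400 (limma). The TPM ratio of Dld to Dlst was 1.19 and 1.13 in Ctrl against 1.38 and 1.34 in WC1.

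Succinyl-CoA ligase pairs the alpha subunit Suclg1 with either the ATP-forming beta subunit Sucla2 or the GTP-forming beta subunit Suclg2. Sucla2 (chr14:73525319-73596142, plus strand) was at 115 and 117 CPM in Ctrl against 149 and 162 CPM in WC1, and rose by 0.42 ± 0.07 (SE, limma adjusted p = 0.0271). Suclg2 (chr6:95473009-95718800, minus strand) was at 32.5 and 30.3 CPM against 38.7 and 42.6 CPM, and rose by 0.36 ± 0.09 (SE, limma adjusted p = 0.0488). Suclg1 was at 84.5 and 78.6 CPM against 96.7 and 101 CPM (limma adjusted p = 0.0594). Both beta subunits thus rose, and their balance did not separate the groups: the TPM ratio of Sucla2 to Suclg2 was 5.71 and 6.24 in Ctrl against 6.25 and 6.15 in WC1. It was the only one of 12 ratios between partner genes for which the groups overlapped.

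Succinate dehydrogenase, which is also complex II of the respiratory chain, had 4 subunit genes in the set. None passed in the limma fit used throughout or in edgeR, and 3 were close to or below Ctrl. Sdha, the flavoprotein subunit, was at 268 and 265 CPM against 317 and 324 CPM (limma adjusted p = 0.0631, unadjusted 0.0142), and it alone of the 4 passed in DESeq2 (adjusted p = 0.00997) and in limma on the TPM matrix (adjusted p = 0.0282), after quantile normalization (0.0338) and without WC1 1 (0.0243). Sdhb, the iron-sulfur subunit, overlapped, at 116 and 109 CPM against 121 and 110.2 CPM. Sdhc and Sdhd anchor the enzyme in the membrane. Sdhc overlapped, at 139 and 125 CPM against 130.1 and 129 CPM. Sdhd was slightly lower in both WC1 libraries, at 141 and 130.1 CPM against 125 and 125 CPM, with a difference of -0.12 ± 0.07 (SE, limma adjusted p = 0.300). In TPM, which raised the median of all tested genes by 0.12, the differences of Sdhc and Sdhd turned to 0.12 and 0.024. The ratio of Sdha to Sdhd, which another scaling of a library does not move, was 0.856 and 0.915 in Ctrl against 1.14 and 1.17 in WC1. By TPM, Sdhd ranked 5 among the 31 genes in Ctrl and 11 in WC1, at nearly the same level (202 and 206 TPM).

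The last steps of the cycle use fumarase, encoded by Fh1, and malate dehydrogenase. Fh1 was at 61.6 and 63.4 CPM in Ctrl against 72.7 and 82.2 CPM in WC1 (limma adjusted p = 0.0664). Mdh1, the cytosolic malate dehydrogenase, was at 307 and 283 CPM against 357 and 391 CPM (limma adjusted p = 0.0627). Mdh2, the mitochondrial enzyme, was at 187 and 195 CPM against 221 and 233 CPM (limma adjusted p = 0.0778). All 3 genes were higher in both WC1 libraries, with an unadjusted p under 0.05 in limma, and none passed in the limma fit used throughout or in edgeR. All 3 passed in DESeq2, on the TPM matrix and without WC1 1, and single genes of the 3 passed under other settings. Mdh1 was the most abundant gene of the set in both groups, at means of 289 and 405 TPM.

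**Figure D3:**
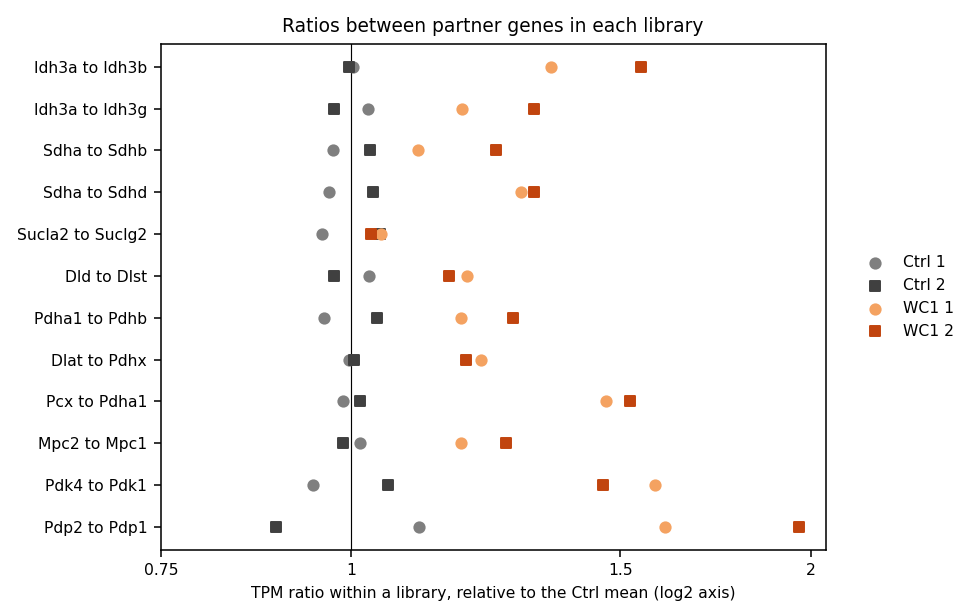
Each row is a TPM ratio of 2 partner genes within a library, divided by the mean ratio of the 2 Ctrl libraries (log2 axis), and each point is 1 library. Both WC1 points lie right of both Ctrl points in 11 of the 12 rows, the exception being Sucla2 to Suclg2; in each row the gene with the larger difference was written first.

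The ratios were computed within a library, so they do not depend on how libraries are scaled to each other. For 11 of 12 ratios both WC1 libraries lay above both Ctrl libraries. In all 12 pairs the gene with the larger difference was written first, which fixed the direction, so the count is a description and supports nothing. The exact two-sided permutation test gave p = 0.33 for each of the 11 and p = 0.667 for Sucla2 to Suclg2, and 0.33 is the smallest p that 2 against 2 libraries allow. Pcx serves the entry of pyruvate as oxaloacetate, and Pdha1 its entry as acetyl-CoA. Their TPM ratio, Pcx to Pdha1, was 1.67 and 1.71 in Ctrl against 2.48 and 2.57 in WC1. This ratio compares transcripts, and the flow of pyruvate was not measured.

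Over the whole set, the summed level was 3996 and 4032 CPM in Ctrl against 4949 and 5257 CPM in WC1, or 99.6% and 100.4% of the Ctrl mean against 123% and 131%. WC1 2 exceeded WC1 1 for 25 of the 31 members and for all 9 that rose. For 20 members the gap between the WC1 libraries was wider than that between the Ctrl libraries, and for 3 it was larger than the difference between the groups. The summed adipocyte markers were also higher in WC1 2 than in WC1 1. The members amounted to 33.6% and 29.9% of the adipocyte sum in Ctrl and to 22.9% and 19.2% in WC1.

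Genes of the same organelle outside the cycle served as a point of reference. In a list of 20 genes of the mitochondrial membrane, import machinery and chaperones, Mfn2 rose, Hspe1 fell and 18 did not pass. Among all tested genes 10.2% rose and 7.71% fell. The median difference of the list was -0.019 on the log2(CPM + 1) scale, but single genes ranged from -0.42 to 0.43. Both WC1 libraries lay above both Ctrl libraries for 8 genes and below for 8, against 32.7% and 36.6% of all tested genes. At an unadjusted limma p under 0.05 there were 7 genes. The list summed to 2621 and 2619 CPM in Ctrl and to 2601 and 2627 CPM in WC1. The TCA cycle and pyruvate entry genes came to 152% and 154% of that sum in Ctrl and to 190.3% and 200.1% in WC1.

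**Figure D4:**
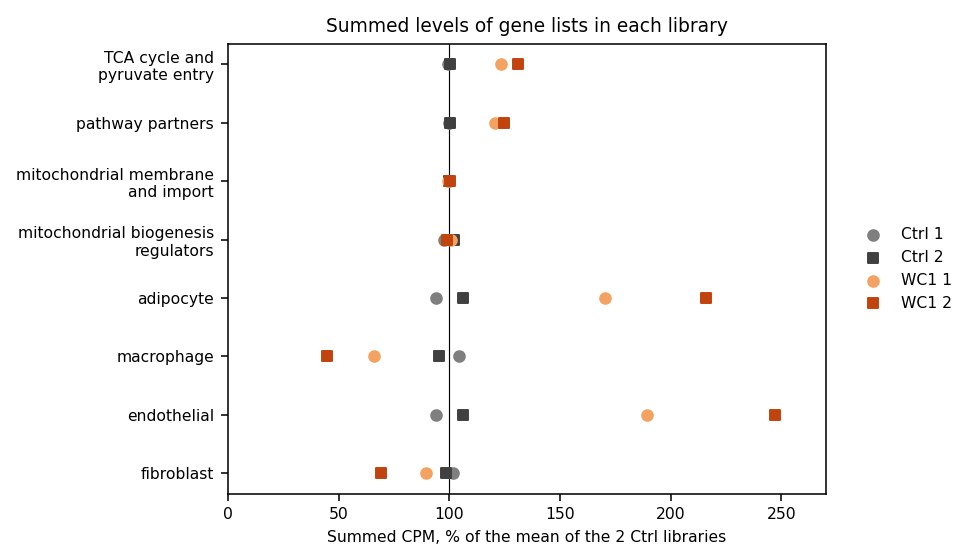
Each row is a gene list and each point a library, plotted as the summed CPM in percent of the mean of the 2 Ctrl libraries. The TCA cycle and pyruvate entry genes lie at 123% and 131% in WC1, the mitochondrial membrane and import list near 100%, the adipocyte list at 170.2% and 216% and the macrophage list at 66.0% and 44.7%.

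Pathway partners that feed, drain or assist the cycle were given by a list of 34 genes, all of which were tested. In WC1, 8 rose, 1 fell and 25 did not pass, against 10.2% of all tested genes that rose and 7.71% that fell, with a median difference of 0.10 on the log2(CPM + 1) scale. Both WC1 libraries lay above both Ctrl libraries for 16 genes and below for 11, against 32.7% and 36.6% of all tested genes. Without Ctrl 1 or without Ctrl 2 no partner passed in either direction in limma (11 and 11 at an unadjusted p under 0.05), and without WC1 1 there were 12 higher and 7 lower, when 17.2% of all tested genes were higher and 19.5% lower.

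The partners that rose included genes of the route by which citrate leaves the mitochondrion and becomes cytosolic acetyl-CoA. Slc25a1, the citrate carrier, was at 229 and 241 CPM against 354 and 397 CPM (difference 0.67 ± 0.09 (SE), limma adjusted p = 0.0190). Acly, ATP citrate lyase, was at 260.0 and 255 CPM against 342 and 351 CPM (difference 0.43 ± 0.07 (SE), limma adjusted p = 0.0269). Me1, the cytosolic malic enzyme that makes NADPH while returning pyruvate, was at 395 and 428 CPM against 629 and 706 CPM (difference 0.69 ± 0.11 (SE), limma adjusted p = 0.0227). None of these 3 overlapped between groups. Acss2, which makes cytosolic acetyl-CoA from acetate, had the largest difference of the list, at 65.0 and 70.6 CPM against 130.2 and 146 CPM (1.02 ± 0.09 (SE), limma adjusted p = 0.0116).

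Pck1, the enzyme of glyceroneogenesis that takes oxaloacetate out of the cycle, was at 112 and 118 CPM in Ctrl against 219 and 188 CPM in WC1 (difference 0.82 ± 0.10 (SE), limma adjusted p = 0.0162). Slc25a10, the dicarboxylate carrier, was at 209 and 219 CPM against 325 and 369 CPM (limma adjusted p = 0.0190). The other 2 were genes of few reads related to Ogdh. Dhtkd1 was at 1.67 and 1.53 CPM against 3.77 and 4.27 CPM (difference 0.95 ± 0.12 (SE), limma adjusted p = 0.0180), and Ogdhl was at 0.863 and 0.931 CPM against 2.39 and 1.70 CPM (difference 0.67 ± 0.16 (SE), limma adjusted p = 0.0474). Got2, the mitochondrial aspartate aminotransferase, fell, from 83.9 and 83.5 CPM to 65.4 and 57.8 CPM (difference -0.44 ± 0.08 (SE), limma adjusted p = 0.0313). Idh1, the cytosolic isocitrate dehydrogenase, was at 315 and 292 CPM against 323 and 322 CPM (limma adjusted p = 0.459).

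Regulators of mitochondrial genes and function, mostly transcription factors and coactivators, were listed as 14 genes. Of these, 13 were tested and Perm1 was too low. Esrrg, an estrogen-related receptor, rose from 0.69 and 1.0 CPM to 2.08 and 2.18 CPM (difference 0.77 ± 0.14 (SE), limma adjusted p = 0.0303). The other 12 did not pass, and 10.2% of all tested genes rose. Both WC1 libraries lay above both Ctrl libraries for 6 of the 13 and below for 3, against 32.7% and 36.6% of all tested genes. At an unadjusted limma p under 0.05 there were 3 of the 13. Ppargc1a, the coactivator PGC-1 alpha, was at 1.43 and 1.75 CPM against 3.15 and 2.13 CPM (limma adjusted p = 0.126). Its relatives Ppargc1b and Pprc1 had differences of 0.14 and -0.16, and Esrra had -0.18. The differences of Nrf1, Gabpa, Gabpb1, Tfam, Tfb1m and Tfb2m lay between -0.15 and 0.14, and those of Ppara and Sirt3 were 0.34 and 0.25. The median of the 13 was 0.14 on the log2(CPM + 1) scale.

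On the TPM matrix 19 members rose and none fell, with a median of 0.42, and 14.6% of all tested genes rose and 4.13% fell. The same matrix moved all genes, with 77.9% of the genes that passed being higher in WC1 against 57.0% on the CPM matrix, and the members lay 0.31 above the median of all genes, against 0.30 on the CPM matrix.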

How the data were processed

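Poly(A) RNA of 4 libraries (2 Ctrl, 2 WC1, by sample title) was analysed. The submitters' processing notes name fastp, HISAT2, StringTie and mm10 without versions; the annotation used for counting and its strand setting were not given in the sources used here. The first deposited matrix holds a signal proportional to reads, called CPM. It was taken as reads divided by rescaled library sizes, since columns summed to between 97.6% and 105% of what plain CPM sums to. Every value was a whole number of reads to within 0.01 read (100% of values), giving totals of 71658062 and 90965297 reads in Ctrl and 61655738 and 61465029 in WC1. In these, 3 reads corresponded to between 0.0345 and 0.0492 CPM, for counting error only. The second matrix holds the TPM that the authors deposited, which corrects for length. The study's methods also left out genes under 0.5 CPM, and no column of another series was present.

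Genes at 0.5 CPM or more in 2 or more libraries were tested (14106 genes, 10315 left out) on log2(CPM + 1), which understates changes of low genes, with limma 3.58.1 in R 4.3.3 (variance trend, two-sided, Benjamini-Hochberg adjustment over all tested genes, threshold 0.05). The scripts were tested on simulated data. Differences are WC1 minus Ctrl. Nothing in the labels says that libraries came from separate animals, so p-values measure only the spread between these libraries. Exact permutation tests used scipy 1.17.1. The 14 alternatives were pseudocounts of 0.5 and 2, no filter, a mean of at least 5 CPM, the TPM matrix, median-of-ratios scaling, quantile normalization, edgeR 4.0.16 and DESeq2 1.42.0 on the recovered reads, a replicate block and each library left out.

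The members, the lists (partners, regulators, membrane and import genes, and markers of adipocytes, macrophages, fibroblasts, endothelial, mesothelial, T and NK, B, skeletal muscle, brown fat and epididymis cells) and the tests were chosen with earlier results of these data known. The text names all members, all tested regulators, the partners that passed and Idh1, Acly, Me1, Pck1 and Slc25a1. Another partner under this rule is not reported here. Got1, Slc25a11, Slc25a12 and Slc25a13 were named outside the rule, after their values were seen. Gene positions are from GENCODE M21 (GRCm38). The exons of Idh3b, Mdh1, Pdha1 and Mpc1 overlap another gene on the opposite strand (Nop56, Wdpcp, Map3k15 and 4930506C21Rik), and reads of such pairs cannot be told apart unless strand was used. No RefSeq promoter window was matched for Idh3a, Sdhc and Pdp1.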

Additional observations from a re-analysis of the deposited data

How the results depend on the processing

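With 2 libraries per group, single calls near the threshold are not firm. The 9 members called higher became 5 without the filter, 19 on the TPM matrix, 17 with DESeq2 and between 0 and 19 when a library was left out, and stayed between 8 and 12 under the other 7 alternatives. No member was called lower under any of the 14 alternatives. The median of the members was 0.42 on the TPM matrix, 0.33 after quantile normalization and between 0.23 and 0.31 with a library left out. Of partners, 13 were higher on the TPM matrix (0 to 12 with a library left out). The 1 partner called lower became 0 without the filter and on the TPM matrix, 2 with edgeR, quantile normalization, median-of-ratios scaling and the mean of 5 CPM, 4 with DESeq2, 3 with the replicate block and 0 to 7 with a library left out. All genes called, 2531, became 1320 without the filter, 3861 with DESeq2 and 6 to 5172 with a library left out. Leaving out a library leaves 1 sample in a group, assumed to vary like the other group. The replicate block gave 12 members and 3266 genes, with Idh3g, Fh1, Pdha1 and Pdk4 passing (adjusted p from 0.0355 to 0.0476) and Suclg2 not (0.0521). The differences of libraries numbered 1 and 2 had r = 0.19 between groups over all genes and 0.09 over members, and 2 pairs are too few to show pairing. Differences that turned sign belonged to members that never passed: Sdhb without Ctrl 2 (-0.011) and without WC1 1 (-0.029), Sdhc on TPM (0.12), after quantile normalization (0.034) and without Ctrl 1 (0.053), Sdhd on TPM (0.024), and Pdk1 on TPM (0.068), without Ctrl 1 (0.023) and without WC1 2 (0.095). With a library left out, Sdhb ranged from -0.029 to 0.10, Sdhc from -0.099 to 0.053 and Pdk1 from -0.23 to 0.095. The cause of these changes was not tested.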

Other observations

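The malate-aspartate shuttle, which carries the electrons of cytosolic NADH into the mitochondrion, uses both malate dehydrogenases together with the aspartate aminotransferases, the aspartate-glutamate carriers and the oxoglutarate carrier. These genes were singled out after their values were seen, so no test was made of them as a list. While Mdh1 and Mdh2 were higher in both WC1 libraries, the other 5 genes were lower in both, as were 36.6% of all tested genes. Got1, the cytosolic aminotransferase, was at 34.2 and 40.0 CPM in Ctrl and 27.6 and 22.4 CPM in WC1 (difference -0.56, limma adjusted p = 0.0503). The carrier gene Slc25a12 was at 33.3 and 29.4 CPM against 23.4 and 18.1 CPM, with a difference of -0.58 (limma adjusted p = 0.0530). Slc25a13, the other aspartate-glutamate carrier, was at 44.4 and 37.0 CPM against 31.4 and 21.4 CPM, a difference of -0.62 (limma adjusted p = 0.0895). Slc25a11, the oxoglutarate carrier, was at 100.4 and 95.9 CPM against 87.2 and 82.1 CPM, a difference of -0.21 (limma adjusted p = 0.0979). Of the 5, Got2 passed in the limma fit used throughout. The number of partners called lower depended on the setting. With every library kept, it went from 0 without the filter to 4 with DESeq2. In TPM both WC1 libraries also lay below both Ctrl libraries for all 5 genes, the gap being small for Slc25a11 (103 and 99.5 TPM against 97.6 and 95.0 TPM).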
